A study of Mus musculus with 10 samples.

Results

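Cholesterol synthesis and its control by SREBP2 were followed through 30 genes in the livers of APOE4 and APOE3 mice. The genes were chosen by name for their role in the pathway, with earlier results of these data known. They comprised 9 genes of the mevalonate and isoprenoid steps, 9 genes of the steps between squalene and cholesterol, 6 genes that control SREBP2 processing, and 6 genes of intracellular sterol movement and esterification. Of these, 27 were read by at least 1 probe set that names a single gene, on an array of 45101 probe sets. The expression of Acat2, Soat1 and Soat2 was not analysed here. A gene with several probe sets was summarised by its brightest probe set, by the mean of the 10 arrays, and 24 genes reached the mean log2 value of 4 below which values of this kind lie near background. These 24 were tested, among 8535 tested genes in all.

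The study compared 5 APOE4 livers with 5 APOE3 livers, each from 1 female mouse. The APOE4 animals were homozygous for the human APOE4 allele in place of the endogenous mouse Apoe gene, and the APOE3 animals were homozygous in the same way for the human APOE3 allele. In both genotypes the human gene was driven by the mouse Apoe promoter on a C57BL/6 background (N8), so no animal carried the mouse Apoe gene. All animals were 3 months old and had eaten a semi-synthetic diet rich in butter fat and cholesterol. The diet is described both as 41% of energy from milk fat with 2 g/kg cholesterol for 6 weeks and as 21.2% butter fat with 0.2% cholesterol for 2 months. No group on another diet was part of the comparison. Total liver RNA was labelled with biotin and hybridised to one-colour arrays, with 1 extract per animal, and values are given on the log2 scale after GCRMA, which corrects background and normalizes between arrays.

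Hepatocytes make cholesterol from acetyl-CoA through mevalonate, the isoprenoid farnesyl pyrophosphate, squalene and a series of sterol intermediates. The transcription factor SREBP2, encoded by Srebf2, is held in the endoplasmic reticulum by its escort SCAP and the INSIG proteins while sterols are plentiful. When sterols fall, SCAP carries SREBP2 to the Golgi, where the site-1 and site-2 proteases release its active part, which raises transcription of most genes of the pathway. Dietary cholesterol is known to lower this programme in mouse liver.

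SREBP2 acts at sterol response elements, usually beside sites for NF-Y (CCAAT) and Sp1 (GGGCGG), and the promoters of 4 genes described in detail here are shown because they span the pathway. The windows run from 250 bases before to 50 bases after the annotated start, are taken from RefSeq on GRCm38.p6 and are written 5′ to 3′ on the strand of the gene. Hmgcs1 lies at chr13:119690101-119690400 on the plus strand, Cyp51 at chr5:4104648-4104947 on the minus strand, Sc5d at chr9:42264251-42264550 on the minus strand and Insig1 at chr5:28071162-28071461 on the plus strand. Capitals mark exact matches on either strand to TCACNCCAC (a sterol response element core), CCAAT or GGGCGG, and no matches overlapped.
Hmgcs1: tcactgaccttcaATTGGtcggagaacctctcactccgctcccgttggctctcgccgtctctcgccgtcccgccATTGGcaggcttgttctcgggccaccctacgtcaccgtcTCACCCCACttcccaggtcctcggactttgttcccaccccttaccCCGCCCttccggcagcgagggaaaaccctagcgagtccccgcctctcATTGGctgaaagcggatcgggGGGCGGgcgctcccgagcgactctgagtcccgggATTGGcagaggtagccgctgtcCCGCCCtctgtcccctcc
Cyp51: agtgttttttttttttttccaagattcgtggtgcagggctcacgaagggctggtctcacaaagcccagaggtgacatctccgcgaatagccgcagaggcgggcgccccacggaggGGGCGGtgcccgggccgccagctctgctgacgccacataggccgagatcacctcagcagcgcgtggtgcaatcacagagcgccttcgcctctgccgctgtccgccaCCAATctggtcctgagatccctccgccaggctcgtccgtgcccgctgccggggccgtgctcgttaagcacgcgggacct
Sc5d: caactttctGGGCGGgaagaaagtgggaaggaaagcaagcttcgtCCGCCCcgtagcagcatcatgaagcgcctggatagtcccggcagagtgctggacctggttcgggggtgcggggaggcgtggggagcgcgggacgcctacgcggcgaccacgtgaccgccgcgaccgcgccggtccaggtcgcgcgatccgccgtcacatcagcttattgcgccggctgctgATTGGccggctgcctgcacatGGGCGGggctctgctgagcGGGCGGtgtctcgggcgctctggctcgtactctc
Insig1: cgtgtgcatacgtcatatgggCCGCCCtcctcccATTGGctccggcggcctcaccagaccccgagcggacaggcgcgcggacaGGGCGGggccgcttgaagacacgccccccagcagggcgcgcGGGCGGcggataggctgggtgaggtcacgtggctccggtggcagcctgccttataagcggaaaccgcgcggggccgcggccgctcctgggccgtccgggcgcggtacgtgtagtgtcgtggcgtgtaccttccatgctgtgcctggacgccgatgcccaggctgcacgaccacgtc

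The Hmgcs1 window holds 1 match to TCACNCCAC, beginning at position -137 from the start site, with 4 matches to CCAAT and 3 to GGGCGG. The Cyp51 window holds 1 CCAAT and 1 GGGCGG, the Sc5d window 1 CCAAT and 4 GGGCGG, and the Insig1 window 1 CCAAT and 3 GGGCGG. RefSeq windows were given for 24 of the 30 genes. CCAAT was present for 20 of them (83.3%), against 41.1% of 27025 genes with a window. GGGCGG was present for 21 of them (87.5%), against 38.2% of all genes. TCACNCCAC was present for 1, Hmgcs1, against 1.44% of all genes. These matches describe letters in 1 short window per start and say nothing of whether a factor bound there.

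None of the 24 genes passed the test between APOE4 and APOE3 livers. Under limma with Benjamini-Hochberg adjustment over 14732 probe sets, 0 of the 24 genes were called at an adjusted p under 0.05, while 0.0815% of all probe sets were called (12, of which 5 were higher and 7 lower in APOE4). At an unadjusted p under 0.05, 0 of 24 genes passed, against 8.00% of all probe sets. With limma's trend and robust settings 0 of the 24 were called as well. The smallest unadjusted p was that of Mbtps2 (0.0955, adjusted p = 0.677). With arrays centred on their median the limma p of Mbtps2 was 0.0446 (adjusted p = 0.675), and 1 of the 24 genes was under 0.05. These p-values rest on 5 animals per genotype, whose number limits the precision, and a p above the threshold does not show that the genotypes are alike.

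The differences, APOE4 minus APOE3, were positive for 19 of the 24 genes and negative for 5. Positive differences made up 79.2% of these genes, against 59.6% of all genes tested, where each gene was again read by 1 probe set. The median difference of the 24 genes was 0.09 log2, against 0.04 over all genes, and the differences ran from -0.25 for Mbtps2 to 0.77 for Fdps. By role, the counts were 5 of 6 positive for the mevalonate and isoprenoid steps (median 0.06), 8 of 8 for squalene to cholesterol (median 0.12), 4 of 6 for SREBP2 control (median 0.16) and 2 of 4 for sterol movement (median -0.01). The number of positive genes rested partly on a single animal: without APOE4 replicate 1 it was 14 of 24 (58.3%), against 59.7% of all genes. With each array centred on its median over the tested probe sets, 15 of 24 were positive (62.5%), against 45.4% of all genes, and with renewed quantile normalization 18 of 24 (75%), against 49.0%. In whole liver, fewer cells of a type and less RNA per cell cannot be told apart for any of these values.

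**Figure D1:**
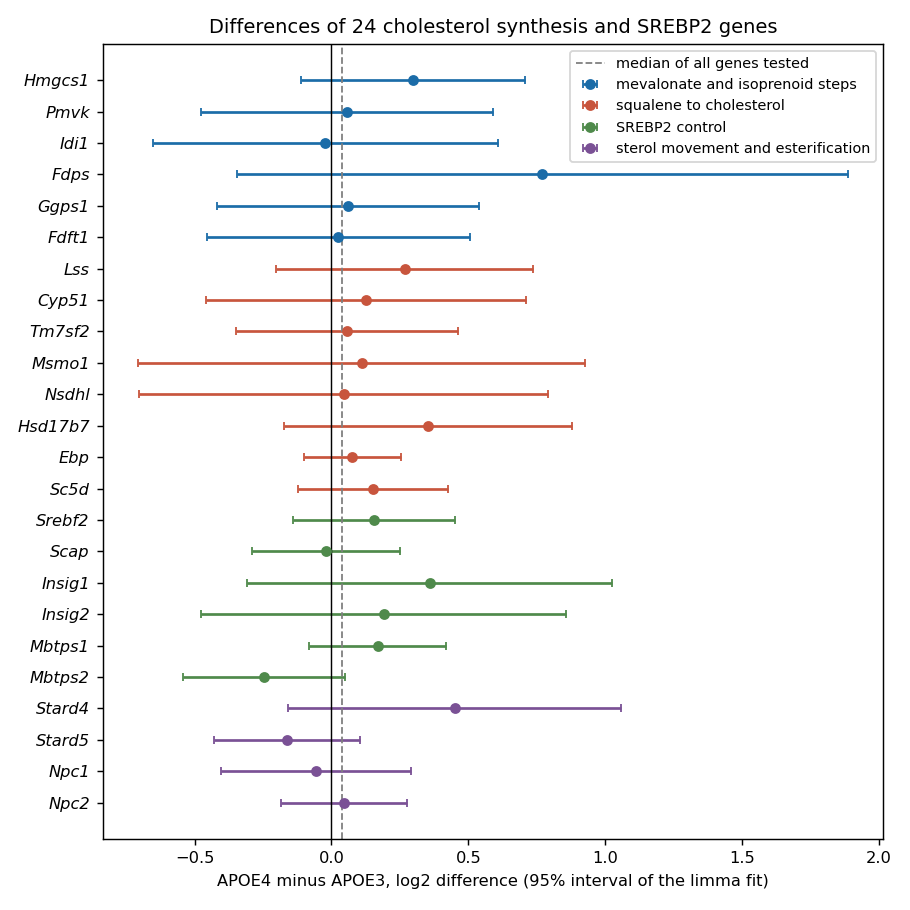
Difference between APOE4 and APOE3 livers (APOE4 minus APOE3, log2, horizontal axis) for each of 24 genes, with the 95% interval of the limma fit (n = 5 each); colours give the role and the dashed line the median over all genes tested (0.04). Every interval includes 0, and the points run from -0.25 for Mbtps2 to 0.77 for Fdps.

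Over all probe sets, most of them near background, the APOE4 array medians lay between 2.62 and 2.64 and the APOE3 array medians between 2.64 and 2.67, without overlap (exact permutation test over 252 splits, two-sided p = 0.00794). Over the 14732 tested probe sets the order was the opposite, with medians of 7.15 to 7.16 in APOE4 and 7.05 to 7.13 in APOE3 arrays, again without overlap, so the tested values as a whole sat higher in APOE4. As a measure of RNA integrity, the excess of the 3′ over the 5′ probe set of Actb was 2.64 ± 0.20 in APOE4 and 2.68 ± 0.37 in APOE3 livers (SD, n = 5 each, exact permutation p = 0.881), and that of Gapdh was 0.40 ± 0.13 in APOE4 and 0.44 ± 0.21 in APOE3 livers (p = 0.730, exact permutation). Of the 9 tested hepatocyte markers, 3 had positive and 6 negative differences (median -0.03 log2, 0 called by limma), against 59.6% positive of all genes. The most abundant of them, Ttr and Apoa1, averaged 14.64 and 14.53 in APOE4 livers and 14.66 and 14.51 in APOE3 livers. Of the cholangiocyte markers, 0 of 4 on the array reached a mean of 4. All 14 Kupffer cell and macrophage markers were measured, and 12 had negative differences with 0 called by limma (0 with an unadjusted p under 0.05, median -0.22). The probe set for mouse Apoe lay between 1.00 and 1.19 in APOE4 livers and between 0.96 and 1.12 in APOE3 livers, near background in both, and does not tell the human alleles apart.

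At the entry to the pathway stands Hmgcs1, the cytosolic HMG-CoA synthase and a textbook SREBP2 target. In APOE4 livers its values were 10.88, 11.24, 11.01, 11.06 and 10.96, and in APOE3 livers 11.43, 10.59, 10.83, 10.28 and 10.53. The APOE4 livers lay close together (SD 0.13) and the APOE3 livers spread more widely (SD 0.44), from below to above all APOE4 values. The difference was 0.30 log2 (95% interval -0.11 to 0.71, SE 0.19, limma adjusted p = 0.705). It was 0.47 log2 without APOE3 replicate 1 (adjusted p = 0.277) and 0.19 log2 without APOE3 replicate 4. The other 3 tested probe sets of Hmgcs1 gave differences of 0.23, 0.37 and 0.48, each also with APOE3 replicate 1 highest and APOE3 replicate 4 lowest.

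Fdps makes farnesyl pyrophosphate, the branch point toward sterols, dolichol and protein prenylation. It read 6.81, 4.55, 5.00, 3.96 and 5.61 in APOE4 livers, against 5.71, 4.13, 4.08, 3.77 and 4.39 in APOE3 livers. Its difference of 0.77 log2 was the widest of the 24 in point value, with a fold of 1.71, but its interval ran from -0.35 to 1.89 (adjusted p = 0.717). The SD was 1.09 in APOE4 and 0.75 in APOE3 livers, and replicate 1 was the highest animal within each genotype. Without APOE4 replicate 1 the difference was 0.37 log2, and without APOE3 replicate 1 it was 1.09 log2 (limma adjusted p = 0.428). Fdps lay close to the limit of 4, with a mean of 4.80 and 1 liver of each genotype below the limit.

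The remaining genes of the mevalonate steps showed small differences beside their spread. Pmvk, which phosphorylates mevalonate-5-phosphate, averaged 6.44 ± 0.20 in APOE4 and 6.39 ± 0.58 in APOE3 livers (SD, n = 5 each), and the value of 7.35 in APOE3 replicate 1 was the highest of the 10. Idi1, the isopentenyl diphosphate isomerase, averaged 6.49 ± 0.49 in APOE4 and 6.51 ± 0.55 in APOE3 livers. Ggps1, which makes geranylgeranyl pyrophosphate, differed by 0.06 log2. Fdft1, the squalene synthase that commits the pathway to sterols, averaged 9.78 ± 0.32 in APOE4 and 9.76 ± 0.44 in APOE3 livers.

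Mvk and Mvd, the mevalonate kinase and the decarboxylase that makes isopentenyl pyrophosphate, did not reach the mean of 4. Mvk lay between 3.05 and 3.38 in APOE4 livers and between 3.00 and 3.36 in APOE3 livers. Mvd was at 4.38 in APOE4 replicate 1 and between 2.15 and 2.44 in the other APOE4 livers, against 1.88 to 2.45 in APOE3 livers. Sqle, the squalene epoxidase, which is a rate-controlling step after squalene, had the same shape: 4.04 in APOE4 replicate 1 and 2.55 to 2.96 in the other APOE4 livers, against 2.38 to 2.82 in APOE3 livers. The value of APOE4 replicate 1 was thus the single one of 10 to reach 4 for both Mvd and Sqle, and at these levels differences have no sure scale.

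**Figure D2:**
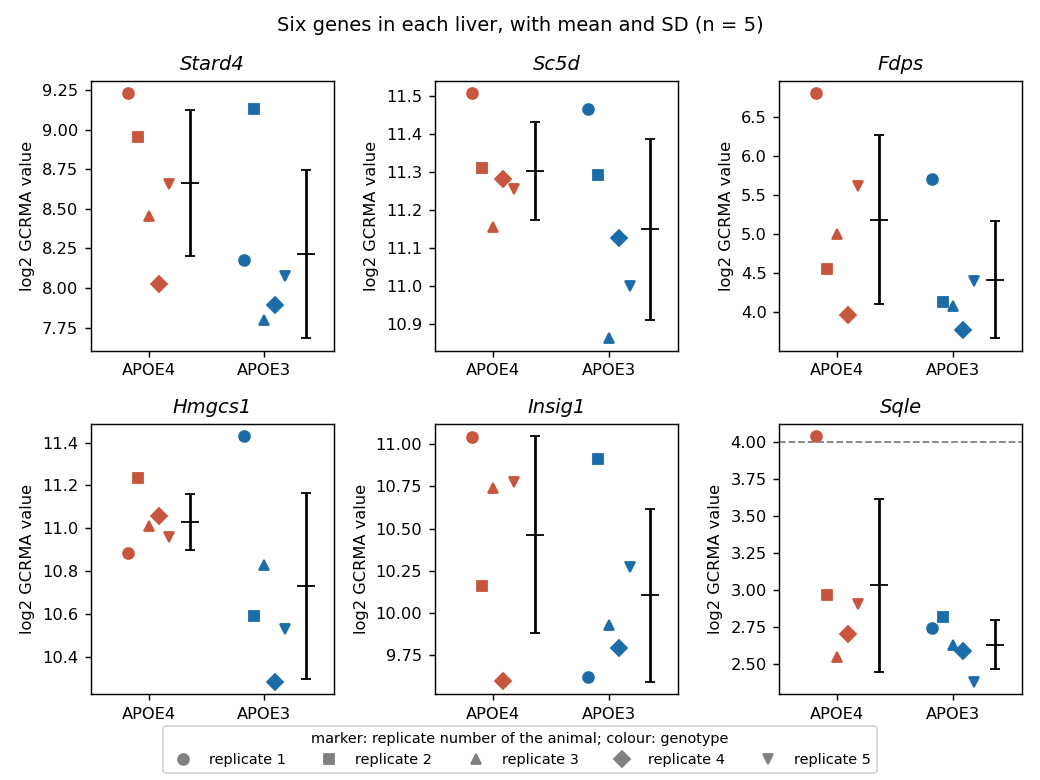
Log2 GCRMA values of 6 genes in each of 5 APOE4 livers (red, left) and 5 APOE3 livers (blue, right), with the mean and SD beside each group; each panel has its own scale and the dashed line in the Sqle panel marks the background limit of 4. The groups overlap in every panel, and APOE4 replicate 1 (circle) is the highest APOE4 liver in every panel except that of Hmgcs1.

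All 8 tested genes between squalene and cholesterol had positive differences, and none passed the test. The widest over all 10 animals belonged to Hsd17b7, the 3-ketosteroid reductase of C4 demethylation, with 6.80, 7.34, 7.67, 7.67 and 7.46 in APOE4 livers, against 6.73, 6.33, 7.34, 7.31 and 7.47 in APOE3 livers. The groups overlapped, and the difference was 0.35 log2 (95% interval -0.17 to 0.88, adjusted p = 0.724). Without APOE3 replicate 2 it was 0.18 log2, below that of Lss (0.36). These Hsd17b7 values are from the probe set 1457248_x_at alone. The gene's other probe sets, 1417871_at, 1440057_at and 1448865_at, lay near background (means 3.17, 1.86 and 3.13) and were not tested. Their differences were -0.04, -0.18 and 0.20 log2. Lss, lanosterol synthase, differed by 0.27 log2 (interval -0.20 to 0.74, adjusted p = 0.763), and by 0.14 to 0.40 log2 when animals were left out in turn, lowest without APOE4 replicate 2 and highest without APOE4 replicate 4.

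For Sc5d, the lathosterol oxidase, the brightest probe set differed by 0.15 log2 (adjusted p = 0.768), with 11.51, 11.31, 11.15, 11.28 and 11.25 in APOE4 livers, against 11.47, 11.29, 10.86, 11.13 and 11.00 in APOE3 livers. A second probe set, 1434520_at, read 8.94, 8.53, 8.33, 8.81 and 8.65 in APOE4 livers, against 8.16, 8.30, 7.99, 8.26 and 7.97 in APOE3 livers. On that probe set each APOE4 liver was above each APOE3 liver. The difference was 0.52 log2, a fold of 1.43 (95% interval 0.24 to 0.79), yet limma's adjusted p was 0.404, so it was not called. It was the 1 probe set of 41 tested for these genes whose groups did not overlap, against 2.02% of all probe sets.

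Apart from Ebp, the other sterol-ring genes had differences smaller than their SDs within genotype. Cyp51, the lanosterol demethylase, read 7.45, 6.26, 6.47, 6.77 and 7.08 in APOE4 livers, against 7.39, 6.88, 6.51, 6.49 and 6.13 in APOE3 livers, and replicate 1 was the highest of each genotype. Msmo1, the methylsterol oxidase, read 8.11, 6.93, 6.86, 5.90 and 7.23 in APOE4 livers, against 7.25, 7.45, 6.25, 6.38 and 7.15 in APOE3 livers. For Msmo1 both the highest and the lowest of the 10 livers were APOE4 animals. Nsdhl, the sterol dehydrogenase that acts with Msmo1, averaged 5.41 ± 0.57 in APOE4 and 5.37 ± 0.67 in APOE3 livers (SD, n = 5 each). Tm7sf2, a sterol reductase, differed by 0.06 log2, and Ebp, the sterol isomerase, by 0.08 log2 with SDs of 0.05 in APOE4 and 0.09 in APOE3 livers. On the brightest probe set of each gene, the positive signs of Cyp51, Msmo1, Nsdhl and Tm7sf2 rested on single animals. Without APOE4 replicate 1 the differences were -0.04 for Cyp51, -0.17 for Msmo1 and -0.14 for Nsdhl. Without APOE3 replicate 2 that of Tm7sf2 was -0.04. A second tested probe set of Cyp51, 1422533_at, had a mean of 4.25, close to the limit of 4. It differed by 0.38 log2 (interval -0.27 to 1.04, limma adjusted p = 0.763) and was not examined with animals left out.

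Among the genes that control SREBP2, Mbtps2, the site-2 protease, had the smallest p of all 24. It read 6.07, 6.26, 6.21, 6.46 and 5.98 in APOE4 livers, against 6.48, 6.77, 6.54, 6.25 and 6.17 in APOE3 livers. The groups overlapped, and the difference of -0.25 log2 had an interval of -0.54 to 0.05 (adjusted p = 0.677). Mbtps1, the site-1 protease that cuts first, went the other way, with 8.83 ± 0.17 in APOE4 and 8.66 ± 0.16 in APOE3 livers (SD, n = 5 each, adjusted p = 0.724).

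Insig1, which retains SCAP and is itself an SREBP2 target, read 11.04, 10.16, 10.74, 9.59 and 10.78 in APOE4 livers, against 9.62, 10.91, 9.93, 9.79 and 10.27 in APOE3 livers. Of the APOE4 livers, 3 lay close to the highest APOE3 liver, and APOE4 replicate 4 lay below all of the other livers. The difference was 0.36 log2 (95% interval -0.31 to 1.03, adjusted p = 0.777), and it was 0.21 log2 without APOE4 replicate 1 and 0.58 log2 without APOE4 replicate 4. Insig2, its liver-rich paralogue, averaged 11.76 ± 0.31 in APOE4 and 11.57 ± 0.71 in APOE3 livers, and its 3 probe sets differed in sign (0.19, 0.13 and -0.05). Srebf2 itself was low, at 4.73 ± 0.23 in APOE4 and 4.58 ± 0.19 in APOE3 livers. Scap differed by -0.02 log2 (interval -0.29 to 0.25).

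Among the genes of sterol movement the widest difference was that of Stard4, a cytosolic sterol carrier and SREBP2 target. Its brightest probe set read 9.23, 8.96, 8.45, 8.03 and 8.65 in APOE4 livers, against 8.18, 9.13, 7.80, 7.89 and 8.08 in APOE3 livers. Of the APOE3 livers, replicate 2 stood with the highest APOE4 animals and the other 4 were below 4 of the 5 APOE4 livers. The difference was 0.45 log2 (95% interval -0.16 to 1.06, adjusted p = 0.703), and it was 0.68 log2 without APOE3 replicate 2.

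A second Stard4 probe set, 1429239_a_at, read 7.90, 7.22, 6.53, 6.13 and 6.81 in APOE4 livers, against 6.49, 6.38, 5.32, 5.19 and 5.91 in APOE3 livers. The groups overlapped in that APOE4 replicate 4 was below 2 of the APOE3 livers. The difference was 1.06 log2, a fold of 2.08, with an interval of 0.29 to 1.83 (limma adjusted p = 0.546), and it was not called. The third probe set gave 0.65 log2 (adjusted p = 0.677). All 3 thus had positive differences of unequal size, and in each of them APOE4 replicate 1 was the highest of the 10 livers. Together with the second Sc5d probe set, this was 1 of 2 probe sets of 41 with an unadjusted p under 0.05 (against 8.00% of all probe sets).

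Of the other transport genes, Stard5, a related sterol-binding protein, averaged 9.70 ± 0.24 in APOE4 and 9.87 ± 0.12 in APOE3 livers, and its probe sets differed in sign (-0.16, -0.19 and 0.10). Npc1 and Npc2, which export cholesterol from lysosomes, differed by -0.06 and 0.04 log2. Their intervals ran from -0.40 to 0.29 for Npc1 and from -0.19 to 0.28 for Npc2.

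The genes varied strongly between animals of the same genotype. The median SD within genotype was 0.38 log2 for these 24 genes, against 0.22 over all genes tested, and 16 of the 24 lay above that median. Of the 24, 8 lay above the 90th percentile of all genes (0.45 log2). The SDs ran from 0.08 for Ebp to 0.94 for Fdps, and 14 genes spanned more than 1 log2 unit over the 10 animals.

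Some livers were high or low for several of the genes at once. APOE4 replicate 1 was the highest of the 10 animals for 9 genes and above the gene's mean for 18, with a median deviation of 0.25 log2 from the mean over all animals. Among APOE3 livers, replicate 4 was the lowest for 6 genes (median deviation -0.21) and replicate 3 for 4 genes (-0.17), while replicate 2 was the lowest for 4 and the highest for 2 genes (0.03). The arrays of APOE3 replicates 3 and 4 also had the lowest medians over all tested probe sets (7.05 and 7.08, against 7.11 to 7.16 in the others). How much of these deviations was array-wide was not tested. APOE3 replicate 1 was the highest for 4 genes, and its median deviation over the mevalonate and isoprenoid steps was 0.43 log2. The genotypes overlapped in this measure, with APOE4 replicate 4 at -0.06 and APOE3 replicate 1 at 0.13 over all 24 genes.

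Markers of other cell types also differed between these animals. The summed deviation of the 14 Kupffer cell and macrophage markers ranged from -7.25 to 5.73 log2 in APOE4 livers and from -4.70 to 15.9 in APOE3 livers. The highest APOE4 value was that of replicate 1, and the highest APOE3 value that of replicate 4. In APOE3 replicate 4 the markers did not move evenly. Marco read 9.99 there, against a mean of 4.33 over all livers, and was under 4 in 4 APOE4 and 3 APOE3 livers. Cd163 went the other way, at 6.37 against a mean of 8.56. The most abundant of these markers, Cd5l and Ctss, averaged 11.32 and 10.73 in APOE4 livers and 11.52 and 10.99 in APOE3 livers. For the 6 tested stellate and fibroblast markers the summed deviation was highest in APOE4 replicate 1 (3.40), within a range of -3.55 to 3.40 in APOE4 and -3.45 to 2.38 in APOE3 livers. The most abundant of them, Dcn and Rgs5, averaged 10.86 and 9.72 in APOE4 livers and 10.93 and 10.11 in APOE3 livers. Of the 6, 3 had positive and 3 negative differences, and the smallest p was that of Lrat, the retinol esterifying enzyme of stellate cells, with 8.48 ± 0.32 in APOE4 and 7.74 ± 0.39 in APOE3 livers (SD, n = 5 each, limma adjusted p = 0.452). Their part in the deviations of the cholesterol genes was not tested. When APOE4 replicate 1 and APOE3 replicate 4 were both left out, a setting chosen after seeing the data, 15 of 24 genes had positive differences (62.5%), against 58.5% of all genes.

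**Figure D3:**
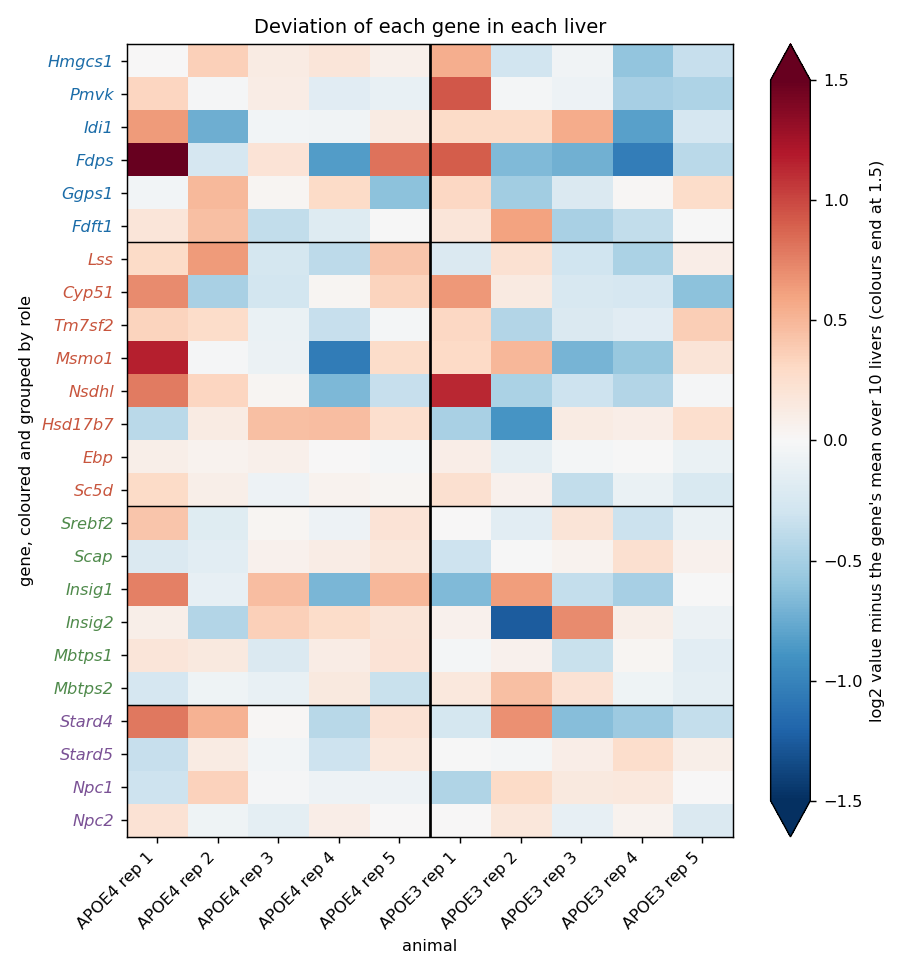
Deviation of each gene (vertical, grouped and coloured by role) from its mean over 10 livers (colour scale, log2, ending at 1.5) in each APOE4 liver (left) and APOE3 liver (right). APOE4 replicate 1 is above the gene's mean for 18 of 24 genes, and APOE3 replicates 3, 4 and 5 are each above it for 8.

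Covariation across the 10 animals was first examined against Sqle. The values of 17 of 24 genes correlated positively with it and the median Pearson's r was 0.43, but 0 of 24 passed after adjustment over the 24 (7 with an unadjusted p under 0.05, permutation tests with 1e+05 resamples, two-sided). The share of all tested genes that correlate with Sqle was not computed, so these counts do not show a covariation particular to the pathway. The smallest p was that of Stard4 (r = 0.70, permutation p = 0.00304, adjusted p = 0.0730; Spearman's rho = 0.72, permutation p = 0.0245, adjusted p = 0.181), and r was 0.71 without the 2 animals farthest from the Sqle median. Without those animals, APOE4 replicate 1 and APOE3 replicate 5, the median r over the 24 genes was 0.20. In that setting 1 gene passed after adjustment, Lss, at r = 0.91 (n = 8, exact permutation p = 0.00166), against r = 0.47 over all 10 animals (permutation p = 0.154, adjusted p = 0.307; Spearman's rho = 0.70, permutation p = 0.0302). Sqle lay near background in 9 of 10 livers, where differences have no sure scale. With the genotype means removed, Hsd17b7 passed with a negative correlation (r = -0.76, exact permutation p = 0.000278, adjusted p = 0.00667), at r = -0.98 within APOE4 and -0.88 within APOE3 livers (n = 5 each). Over all 10 animals without that step its r was -0.41 (permutation p = 0.219, adjusted p = 0.335; Spearman's rho = -0.43, permutation p = 0.219), and r was -0.27 without the 2 farthest animals. These Hsd17b7 values too are from the probe set 1457248_x_at alone, as the gene's other probe sets lay near background.

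Cyp51, which is well above background, was then used in the same way, a choice made after seeing the data. Positive correlations with Cyp51 were found for 16 of 23 genes, with a median r of 0.36, and 0 passed after adjustment over the 23 (6 with an unadjusted p under 0.05). Here too the share of all tested genes was not computed. The highest were Sc5d (r = 0.75, permutation p = 0.0134, adjusted p = 0.101; Spearman's rho = 0.61, permutation p = 0.0668), Fdps (r = 0.73), Pmvk (r = 0.71) and Npc2 (r = 0.71). Npc1 had the lowest (r = -0.73, permutation p = 0.0176, adjusted p = 0.101; Spearman's rho = -0.64, permutation p = 0.0552). Without the 2 animals farthest from the Cyp51 median, replicate 1 of each genotype, r was 0.45 for Sc5d, 0.30 for Fdps, 0.30 for Pmvk, 0.70 for Npc2 and -0.27 for Npc1, and the median over the 23 genes was 0.12. Apart from Npc2, the highest correlations were thus weaker without these 2 animals. Both had the highest Cyp51 values (7.45 in APOE4 and 7.39 in APOE3), so leaving them out also narrows the range of Cyp51, which can itself lower r. Whether the correlations rested on these animals cannot be told from this step.

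**Figure D4:**
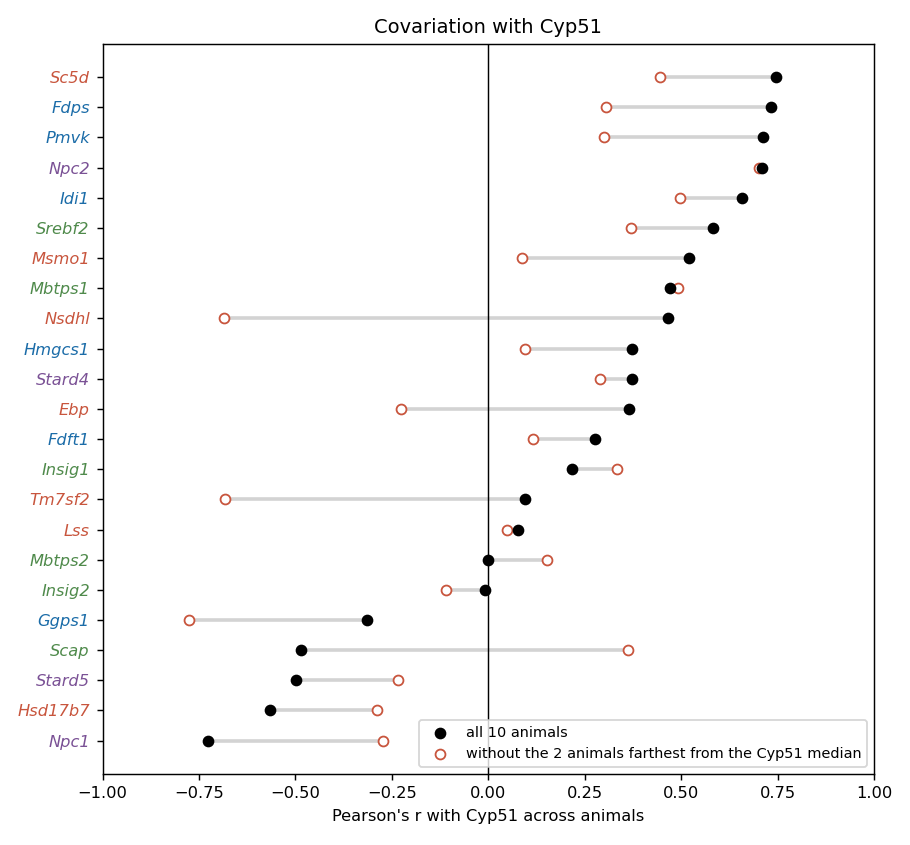
Pearson's r of each of 23 genes with Cyp51 (horizontal axis) over all 10 animals (filled circles) and without replicate 1 of each genotype (open circles); gene names are coloured by role. The median r is 0.36 with all animals and 0.12 without the 2, and Nsdhl, Tm7sf2, Ebp, Scap and Mbtps2 lie on opposite sides of 0.

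Genes of the pathway outside the 30 were read in the same fit. Of 19 further synthesis and feedback genes, 12 had a probe set that names them and 11 passed the filter. None was called in either direction under limma, beside 0.0815% of all probe sets. Differences were positive for 6 and negative for 5 with a median of 0.00 log2, beside 59.6% positive and a median of 0.04 over all genes. At an unadjusted p under 0.05 there was 1 of 11, beside 8.00% of all probe sets. The 1 was Dhcr7, which makes cholesterol from its last precursor. It read 6.00, 4.66, 5.49, 4.57 and 5.35 in APOE4 livers, against 6.19, 5.56, 5.47, 5.93 and 6.04 in APOE3 livers. Its difference was negative (-0.62 log2, interval -1.21 to -0.04, adjusted p = 0.595), unlike those of the 8 tested genes of the 30 between squalene and cholesterol. Erlin2, a component of the sterol-regulated degradation machinery of the endoplasmic reticulum, had the next smallest p of this list (0.12 log2, adjusted p = 0.737).

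Of 10 genes in the isoprenoid branches, which use farnesyl and geranylgeranyl pyrophosphate for dolichol, ubiquinone and prenylated proteins, 8 were tested. All 8 had positive differences with a median of 0.15 log2, beside 59.6% positive and a median of 0.04 over all genes. Of the 8, 7 lay above the median of all genes. Under limma 0 were called, beside 0.0815% of all probe sets, and 0 had an unadjusted p under 0.05, beside 8.00%. Centring the arrays shifts every difference by the same amount, and it turned Pmvk (0.056) negative but not Ebp (0.076). The smallest of these differences, Dhdds (0.013), would thus turn negative, and the next smallest, Fnta (0.088), would stay positive. Rabggta, a subunit of the Rab geranylgeranyl transferase, averaged 6.94 ± 0.43 in APOE4 and 6.54 ± 0.25 in APOE3 livers (SD, n = 5 each, adjusted p = 0.653). Pggt1b, the beta subunit of geranylgeranyl transferase type I, averaged 7.08 ± 0.22 in APOE4 and 6.91 ± 0.12 in APOE3 livers (adjusted p = 0.724).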

How the data were processed

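Per the submitters' processing notes, the authors made the deposited log2 values with GCRMA 2.12.1 in R 2.7.1, a method that removes background according to the GC content of each probe, puts the arrays on a common scale and summarises each probe set. Scanner files were not used here, and the genome build of the probes is not given in the sources used here. Genotype and replicate number came from the sample titles. Genes were named from GEO's platform annotation where it gave a probe set 1 symbol (34958 probe sets).

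After leaving out 64 control probe sets, the 14732 with a mean of at least 4 over all arrays were tested between genotypes with limma 3.58.1 (lmFit, then eBayes; R 4.3.3), two-sided and without covariates, and p-values were adjusted over all of them by Benjamini-Hochberg. The procedure was tested on simulated data. Correlations and their permutation tests were computed with numpy 2.4.6, with ranks from scipy 1.17.1. The labels give no batch or scan date, and no 2 arrays were identical. The genes named were all 30 members, the called genes or the 2 smallest p-values of each further pathway list, and the 2 markers of highest mean of each marker list, given where the list bears on a result. Members and lists were chosen with earlier results of these data known. The marker lists had 0 called genes under limma, with an unadjusted p under 0.05 for Cdh5 (endothelial, -0.34 log2, APOE4 minus APOE3) and Lrat (stellate, 0.75 log2), which were named after their values were seen. The alternatives tried were filters, renewed normalizations, a floor at 4, other limma settings, all probe sets, a block for the replicate number, and omission of animals.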

Additional observations from a re-analysis of the deposited data

Results flagged for a closer look

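Within 48 groups of 5 livers, 3 values stood apart from the other 4 of their genotype by Dixon's criterion, which chance passes in about 1 in 20 groups. Mbtps1 was 8.53 in APOE4 replicate 3, against 8.86 to 8.94 in the other APOE4 livers. Nsdhl was 6.52 in APOE3 replicate 1, against 4.92 to 5.37 in the other APOE3 livers. Stard4 was 9.13 in APOE3 replicate 2, against 7.80 to 8.18 in the other APOE3 livers.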

How the results depend on the processing

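No member gene was called by limma in any setting run on 1 probe set per gene. At an unadjusted p under 0.05, 0 of 24 members passed in the main setting and 1 with arrays centred on their median. The count was 1 with renewed quantile normalization, 1 with array weights, 3 with the replicate block and 0 to 2 when animals were left out in turn. The shares of all probe sets in these settings were not computed. The number of probe sets called over the array was 12, against 5 with a filter at a mean of 6, and 8 to 14 when animals were left out in turn. Positive differences numbered 32 of 41 with all probe sets of the members, and 14 to 20 of 24 when animals were left out in turn, the lowest without APOE4 replicate 1 and the highest without APOE3 replicate 1. The median member difference was 0.05 to 0.19 log2 over the same omissions. Same-numbered animals did not deviate together for every number (r from -0.08 to 0.41 over 5 numbers, 2 of 5 numbers best matched by themselves), so the numbers were not taken to pair them. With the replicate block, 11 probe sets and 0 members were called, and the second Stard4 probe set, not called otherwise, was called with an adjusted p of 0.0454, against 0.298 to 0.775 over its other alternatives. Its difference was lowest (0.65 log2) without APOE4 replicate 1 and APOE3 replicate 4.

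Signs turned for small differences, and the cause was not tested. With arrays centred on their tested probe sets, the differences were -0.0011 for Pmvk, -0.032 for Fdft1, -0.012 for Nsdhl and -0.012 for Npc2, and with quantile normalization -0.014 for Fdft1. Leaving out animals in turn gave ranges of -0.061 to 0.30 for Pmvk, -0.23 to 0.16 for Idi1, -0.064 to 0.22 for Ggps1, -0.095 to 0.18 for Fdft1, -0.036 to 0.30 for Cyp51, -0.044 to 0.16 for Tm7sf2, -0.17 to 0.39 for Msmo1, -0.14 to 0.33 for Nsdhl, -0.099 to 0.040 for Scap, -0.097 to 0.39 for Insig2, -0.18 to 0.016 for Npc1 and -0.0036 to 0.093 for Npc2. Without APOE4 replicate 1 and APOE3 replicate 4 together, chosen after seeing the data, they were -0.13 for Pmvk, -0.11 for Fdft1, -0.084 for Cyp51, -0.052 for Tm7sf2, -0.29 for Msmo1, -0.25 for Nsdhl, 0.093 for Scap and 0.050 for Npc1. The genes correlated with Sqle after adjustment numbered 0, against 1 with genotype means removed, 1 without the 2 farthest animals, and 0 to 1 when animals were left out in turn.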
